A study of Drosophila melanogaster with 24 samples.

Results

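The comparison set 6 pools of whole female Drosophila melanogaster kept under dietary restriction (DR) and given RU486 against 6 pools of AL flies that were also given RU486. They are 12 of the 24 arrays of the series and were chosen by the titles of the samples. The labels do not spell out AL, a short form used in this field for feeding ad libitum. Each array carried RNA of 1 pool of 35 flies aged 13 days, and the DR flies had been on DR food for 10 days. The labels give the strain of every group as +/+; Act5c-GS-Gal4/+; P{GD3482}v8105 /+, which is 1 copy each of a GeneSwitch driver and of an RNAi insertion. GeneSwitch is a Gal4 protein that is activated when the flies take up RU486, and the Act5c promoter is active in nearly all tissues. By general knowledge of this collection, and not by the labels, the insertion targets ACC. The other 12 arrays hold DR and AL flies of the same genotype not given RU486. No group given RU486 without the insertion was analysed here, and both diets of this comparison share the drug and the induced transgene.

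ACC, acetyl-CoA carboxylase, makes malonyl-CoA, the building block of fatty acid synthesis, and malonyl-CoA also restrains the entry of fatty acids into mitochondria. Dietary restriction is known in flies for longer life, fewer eggs and altered storage and use of fat. Amino acid supply acts on growth through the kinase complex TORC1, and the GATOR complexes pass signals of nutrient supply on to it. The comparison asks how transcripts answer to diet in flies in which the RNAi transgene is switched on.

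Values are the log2 brightness of transcripts identified by FlyBase transcript numbers, each the mean of its probes, which number 8 for 16617 of 16637 transcripts. Matched to RefSeq genes (assembly Release 6), 16 transcripts had 1 gene symbol, 28 had several and 16593 had none. The ACC transcript and the transcripts that mark female tissues carry no symbol here, so neither the knockdown nor the labelled sex and tissue was checked. Background is, on each array, the 95th percentile of averages of 8 random probes. In the pools given RU486, 13926 ± 231 transcripts lay above it on DR and 13290 ± 203 on AL (SD, n = 6 each). The numbers did not overlap, with 13611 to 14229 on DR arrays and 12945 to 13496 on AL arrays (exact two-sided permutation p = 0.0022, the smallest this design allows, adjusted over 5 array measures 0.0054). With 1 background level common to all arrays the difference between the means was 201 transcripts in place of 636.5, and still passed (exact permutation p = 0.028). The median of the random probes, which carry no transcript, was 7.05 ± 0.04 log2 on DR arrays and 7.15 ± 0.03 on AL arrays (exact permutation p = 0.0022, adjusted 0.0054), so the low end of the scale moved with the diet. The median over all probes moved the other way, at 9.41 ± 0.08 log2 on DR arrays and 9.32 ± 0.03 on AL arrays (exact permutation p = 0.019, adjusted 0.032).

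DR pool 3 and AL pool 1 stood apart from their groups. AL pool 1 was the highest or the lowest of the AL pools for 73.0% of transcripts, and DR pool 3 was the highest or lowest of the DR pools for 48.2%, against 22.8% to 40.2% for the other DR pools and 17.4% to 30.8% for the other AL pools. The median SD between pools was 0.127 log2 on DR and 0.145 log2 on AL, and 0.109 without DR pool 3 and 0.088 without AL pool 1. The mean brightness of the probe with the highest number in its ID, minus that of the probe with the lowest, was 0.44 ± 0.03 log2 on DR arrays and 0.43 ± 0.05 on AL arrays (exact permutation p = 0.74, adjusted 0.74). In AL pool 1 this was 0.52 log2, against 0.39 to 0.43 in the other AL pools.

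Flies on DR differed from AL flies in 8116 of 16637 transcripts (48.8%) in limma at an adjusted p below 0.05, with 4074 (24.5%) higher and 4042 (24.3%) lower. In bulk RNA of pooled flies, fewer cells of a type and less RNA per cell cannot be told apart. The numbers were nearly even, but the sizes were not. The median of the called differences was 0.50 log2, or 1.42-fold, for transcripts that rose and −0.31 log2, or 1.24-fold lower, for those that fell. At 1.5-fold or more, 1648 (9.91%) rose and 328 (1.97%) fell. After each array was centred on its median, these were 1270 and 569. At 2-fold or more, 456 (2.74%) rose and 78 (0.469%) fell. The far ends were closer to even, with 20 transcripts at least 2 log2 higher and 15 at least 2 log2 lower, and 9 and 5 at 3 log2. With the same centring 3355 rose and 6749 fell in all, so the split of all calls, and the size of the excess of 1.5-fold rises over falls, depend on the scaling. Without DR pool 3 and AL pool 1, 4596 rose and 4342 fell.

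Many transcripts showed no overlap between the diets. All 6 DR pools lay above all 6 AL pools for 2341 transcripts (14.1%) and below them for 1812 (10.9%). Without the arrays that stand apart, the numbers over 5 pools a group were 3747 and 2985. Leaving out any pool can only keep or raise these numbers, and leaving out other pairs of pools was not tested. A call rests on the mean of the probes, so agreement among the probes of a called transcript is partly built into it. Of the 4070 transcripts with 8 probes that rose, 2649 (65.1%) had all 8 higher on DR, and of the 4040 that fell, 2122 (52.5%) had all 8 lower. Among the 8507 that did not pass, 395 (4.64%) had all 8 on the side of their mean. Of 533 transcripts called at 2-fold or more, 519 had 8 of 8 probes moving the same way. Probes of 1 transcript share its RNA and are not replicates. When single probes were tested, 40125 of 132999 (30.2%) passed, and 2447 transcripts had most of their probes called higher and 1059 most of them called lower.

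The direction of the response varied with brightness. Transcripts were split into 10 classes of 1663 or 1664 by mean log2 brightness over the 12 arrays, which reflects probe sequence as well as RNA amount. Over all classes 24.5% of transcripts rose and 24.3% fell. In class 4, between 8.15 and 8.85 log2, 991 transcripts rose and 225 fell, and the median difference was 0.33 log2. In class 7, between 10.26 and 10.77 log2, 270 rose and 678 fell, and the median difference was −0.15. In classes 6 to 10 more transcripts fell than rose, with medians from −0.15 to −0.04 log2. The large rises still reached into them, with the 95th percentile of differences at 1.05 log2 in class 6 and 0.46 in class 10. In class 1, the dimmest, 23 rose and 240 fell, at a median of −0.08 log2, a shift of the same sign as that of the random probes. Of the 1716 transcripts above background on none of the 12 arrays, 9 were called higher and 239 lower, both below the shares of all transcripts. Without DR pool 3 and AL pool 1 the medians of classes 4 and 7 were 0.38 and −0.13 log2, and after centring they were 0.24 and −0.24. The median of class 5 was 0.09 log2, and −0.004 after centring, so its sign depends on the scaling. The part of the moving scale in this pattern was not tested.

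**Figure D1:**
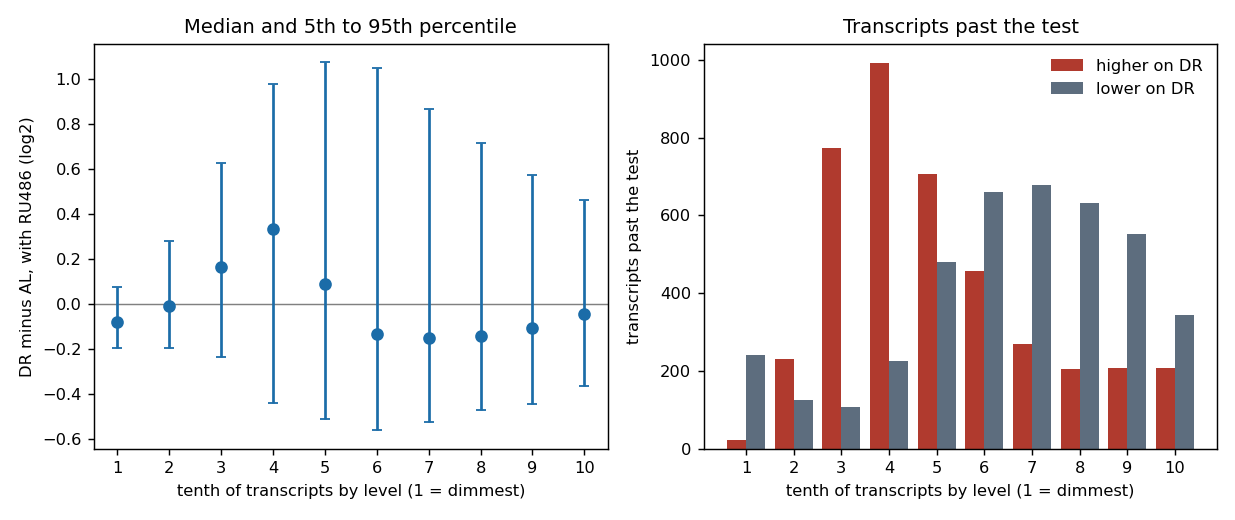
Left, the difference of DR from AL flies given RU486 (log2) in 10 classes of transcripts by mean brightness, as median (points) with the 5th to 95th percentile (bars). Right, the number of transcripts past the test in each class, higher (red) or lower (grey) on DR. The medians are above 0 in classes 3 to 5, at 0.33 log2 in class 4, and below 0 in classes 1, 2 and 6 to 10.

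Some transcripts came up from background on DR. A total of 105 transcripts were above background on all 6 DR arrays and on none of the 6 AL arrays, and 3 were above it on all 6 AL arrays and none of the DR arrays. Most were faint, with a median over transcripts of 7.82 log2 on DR and 7.41 on AL, and the brightest reached a mean of 9.42 on DR. In flies not given RU486, 102 of the 105 were above background on all 6 DR arrays, and 36 were below it on all 6 AL arrays. Both held for 35. The first count says little, since 14113 to 14350 of all 16637 transcripts lay above background on each DR array without RU486. Background itself was lower on DR arrays, at 7.49 ± 0.09 log2 against 7.58 ± 0.06 on AL arrays (exact permutation p = 0.058, adjusted 0.073). With 1 background level common to all arrays, the numbers were 49 on DR only and 5 on AL only.

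Of the 6924 transcripts that passed the test and lay above background on all 12 arrays, the 2 largest rises and the 2 largest falls are given by identifier, as no gene symbol was matched to them. FBtr0085029 lay between 12.31 and 13.29 log2 in DR pools, with a median of 12.77, and between 7.65 and 9.13 in AL pools, with a median of 7.96. No AL pool came near the DR pools, and AL pool 6 was the brightest of its group by a wide gap. The difference was 4.75 ± 0.26 log2 (SE, adjusted p = 5.18e-13), or 26.8-fold. Of its 8 probes, 7 were higher by 4.66 to 5.36 log2 and the one with the highest number, 793, by 2.66.

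FBtr0086997 lay between 10.76 and 11.75 log2 in DR pools (median 11.34) and between 7.74 and 8.31 in AL pools (median 8.04). Every DR pool was brighter than every AL pool, and the DR pools were more spread, with an SD of 0.41 against 0.20. The difference was 3.25 ± 0.23 log2 (SE, adjusted p = 1.96e-11), or 9.503-fold, with all 8 probes higher by 2.83 to 3.84.

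FBtr0089324 was between 7.69 and 9.45 log2 in DR pools (median 8.16) and between 12.72 and 13.20 in AL pools (median 12.86). DR pool 3 was the brightest DR pool at 9.45 and still lay far below the AL pools. The transcript fell by 4.60 ± 0.22 log2 (SE, adjusted p = 1.04e-13), and was 24.3-fold lower on DR. FBtr0089326 was between 7.69 and 8.80 log2 in DR pools (median 8.09) and between 12.38 and 12.83 in AL pools (median 12.67). It fell by 4.53 ± 0.17 log2 (SE, adjusted p = 1.87e-15), or 23.2-fold. In this transcript too DR pool 3 was the brightest DR pool, at 8.80. All 8 probes of FBtr0089324 and all 8 of FBtr0089326 were lower on DR. The interaction of diet and RU486 for the 4 transcripts was −0.66, −0.09, 0.35 and 0.03 log2 and passed for none of them in limma (adjusted p from 0.28 to 0.96).

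Among the 16 transcripts with 1 symbol there were 2 rises, 4 falls and 10 that did not pass, while 48.8% of all transcripts passed. Their median difference was −0.09 log2 and that of all transcripts −0.04. They were picked by the lookup and form no pathway. Of all transcripts, 24.5% rose and 24.3% fell. The gene lists below hold 1 to 4 of these transcripts each, so their counts describe no pathway. Other transcripts of the same genes may be on the array without a symbol. Of the 10 that did not pass, CG16974, HDAC3, His4r and alpha-Spec passed in flies not given RU486, and the rest did not. Their differences there were −0.23, −0.41, 0.31 and 0.64 log2 (limma, adjusted p = 0.00049, 1.74e-05, 0.0068 and 4.49e-05). The interaction of diet and RU486 passed for none of them.

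Among genes of TORC1 control, 2 of a list of 23 have a symbol, and 1 of the 2 fell, against 24.3% of all transcripts. Wdr24 and mio encode subunits of GATOR2, which favours TORC1 activity. Wdr24 lay between 9.63 and 9.83 log2 in DR pools (median 9.70) and between 10.05 and 10.75 in AL pools (median 10.10). All DR pools were below all AL pools, 5 of the AL pools lay between 10.05 and 10.23, and AL pool 1 was far above them. The transcript fell by 0.50 ± 0.10 log2 (SE, adjusted p = 0.00014), and by 0.39 without AL pool 1 (adjusted p = 5.87e-05). The 2 brightest of its probes, numbered 1768 and 1788, were at 12.41 and 11.64 log2 in DR pools and at 12.44 and 11.78 in AL pools, and differed by −0.03 and −0.14 log2. The other 6, at 8.38 to 9.73 log2 in DR pools and 8.85 to 10.45 in AL pools, were lower on DR by 0.47 to 0.78 log2. In flies not given RU486 these 2 probes were lower on DR by 0.48 and 0.31 log2.

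For mio, DR pools lay between 9.62 and 9.77 log2 and AL pools between 9.62 and 10.23, and the groups overlapped. The difference was −0.10 log2 with a 95% interval from −0.26 to 0.06 (adjusted p = 0.29). Without AL pool 1, again the brightest, it was −0.01 log2 (adjusted p = 0.88). After centring on array medians mio passed as lower (adjusted p = 0.033).

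Of the genes of fat use, 1 of a list of 16 on fatty acid breakdown has a symbol. It rose, as did 24.5% of all transcripts. Fatp1 encodes a fatty acid transport protein, a family that brings fatty acids into cells and activates them. It lay between 10.89 and 11.11 log2 in DR pools (median 10.97) and between 10.36 and 10.64 in AL pools (median 10.41). The groups did not overlap, and no pool of either stood apart. The difference was 0.52 ± 0.08 log2 (SE, adjusted p = 3.43e-06), or 1.44-fold, and all 8 probes were higher on DR, by 0.24 to 0.85 log2. The other transporter with a symbol, NaPi-III, which carries phosphate with sodium, was between 12.01 and 12.29 log2 in DR pools and between 11.80 and 12.38 in AL pools. The difference was −0.04 log2 (95% interval −0.20 to 0.12, adjusted p = 0.71), and 5 of 8 probes were on its side.

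Of 15 listed genes of the membrane skeleton and the basement membrane, 2 have a symbol, and 1 rose, against 24.5% of all transcripts. LanA, the laminin alpha chain, lay between 10.97 and 11.41 log2 in DR pools (median 11.13) and between 10.48 and 10.91 in AL pools (median 10.72). The groups did not overlap, though DR pool 3, the lowest on DR, was close to AL pool 3, the highest on AL. The difference was 0.47 ± 0.08 log2 (SE, adjusted p = 2.69e-05), or 1.38-fold. All 8 probes, which lie at numbers 9867 to 11079, were higher on DR, by 0.15 to 0.91 log2. LanA is also the one gene with a symbol of 14 on a list of blood cell markers.

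The spectrin alpha-Spec, of the skeleton under the cell membrane, lay between 10.19 and 11.11 log2 in DR pools and between 10.53 and 11.08 in AL pools. The 5 DR pools other than pool 3 were at 10.75 or above, while DR pool 3 was below every AL pool. In AL, pool 1 was highest at 11.08, and the next was at 10.75. The difference was 0.13 ± 0.12 log2 (SE, 95% interval −0.11 to 0.37, adjusted p = 0.38). It was 0.26 without DR pool 3 (adjusted p = 0.025), 0.28 with array weights (adjusted p = 0.0034) and 0.34 without both arrays that stand apart (adjusted p = 0.00089). Its probes went both ways, from −0.41 log2 at number 6498 to 0.40 at number 6558, and number 6498 had an SD of 1.81 log2 between DR pools and 0.10 between AL pools.

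Of a list of 26 chromatin genes, 4 have a symbol, and 1 fell, against 24.3% of all transcripts. SuUR, a protein of under-replicated heterochromatin in polytene chromosomes, lay between 11.04 and 11.34 log2 in DR pools (median 11.29) and between 11.30 and 11.75 in AL pools (median 11.50). Only AL pool 6, at 11.30, and the upper DR pools overlapped. The transcript fell by 0.26 ± 0.08 log2 (SE, adjusted p = 0.012), and 7 of 8 probes were lower on DR. The histone gene His4r lay between 13.59 and 13.90 log2 in DR pools and between 13.02 and 13.75 in AL pools, where AL pool 1 alone was below 13.63. Its difference was 0.14 log2 (95% interval −0.06 to 0.33, adjusted p = 0.24), and 0.02 without AL pool 1 (adjusted p = 0.79). The histone deacetylase gene HDAC3 differed by −0.09 log2 (95% interval −0.23 to 0.06, adjusted p = 0.32). The chromatin remodeller gene kis differed by −0.09 log2 (95% interval −0.21 to 0.03, adjusted p = 0.21), and by −0.03 without AL pool 1 (adjusted p = 0.60). HDAC3 and kis passed as lower after centring on array medians (adjusted p = 0.0496 and 0.014).

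The one gene with a symbol of 13 on a list of ribosome making and the nucleolus was sle, which encodes a nucleolar protein. It fell, as did 24.3% of all transcripts. It lay between 12.07 and 12.23 log2 in DR pools (median 12.13) and between 12.34 and 12.77 in AL pools (median 12.42). No pools overlapped, and the 5 AL pools other than pool 1 were within 12.34 to 12.43. The transcript fell by 0.32 ± 0.06 log2 (SE, adjusted p = 0.00021), with all 8 probes lower on DR, by 0.10 to 0.63 log2.

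Both genes with a symbol of 16 on a list of the ubiquitin system did not pass, while 48.8% of all transcripts passed. Uba1, the enzyme that activates ubiquitin, differed by −0.07 log2 (95% interval −0.18 to 0.04, adjusted p = 0.28) and passed as lower after centring (adjusted p = 0.035) and with array weights (adjusted p = 0.033). The Cul3 ligase adaptor gene rdx differed by −0.10 log2 (95% interval −0.31 to 0.11, adjusted p = 0.43).

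The last 3 transcripts are fend, CG16974 and CG31178. The level of fend lay between 9.87 and 10.71 log2 in DR pools (median 10.38) and between 10.58 and 11.73 in AL pools (median 10.87). DR pool 2 and the lower AL pools overlapped, AL pool 1 was the highest, with the next AL pool at 10.91, and DR pool 3 was the lowest on DR. Probes 641 and 367 had SDs of 1.93 and 1.12 log2 between DR pools, against 0.37 and 0.46 between AL pools. The transcript fell by 0.61 ± 0.15 log2 (SE, adjusted p = 0.0012), or 1.53-fold, with 8 of 8 probes lower, by 0.45 without AL pool 1 (adjusted p = 0.0015) and by 0.36 without DR pool 3 and AL pool 1 (adjusted p = 0.0036). CG16974 differed by −0.02 log2 (95% interval −0.13 to 0.09, adjusted p = 0.74). CG31178 was above background on 0 of 6 DR and 0 of 6 AL arrays, so it gives no fold.

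**Figure D2:**
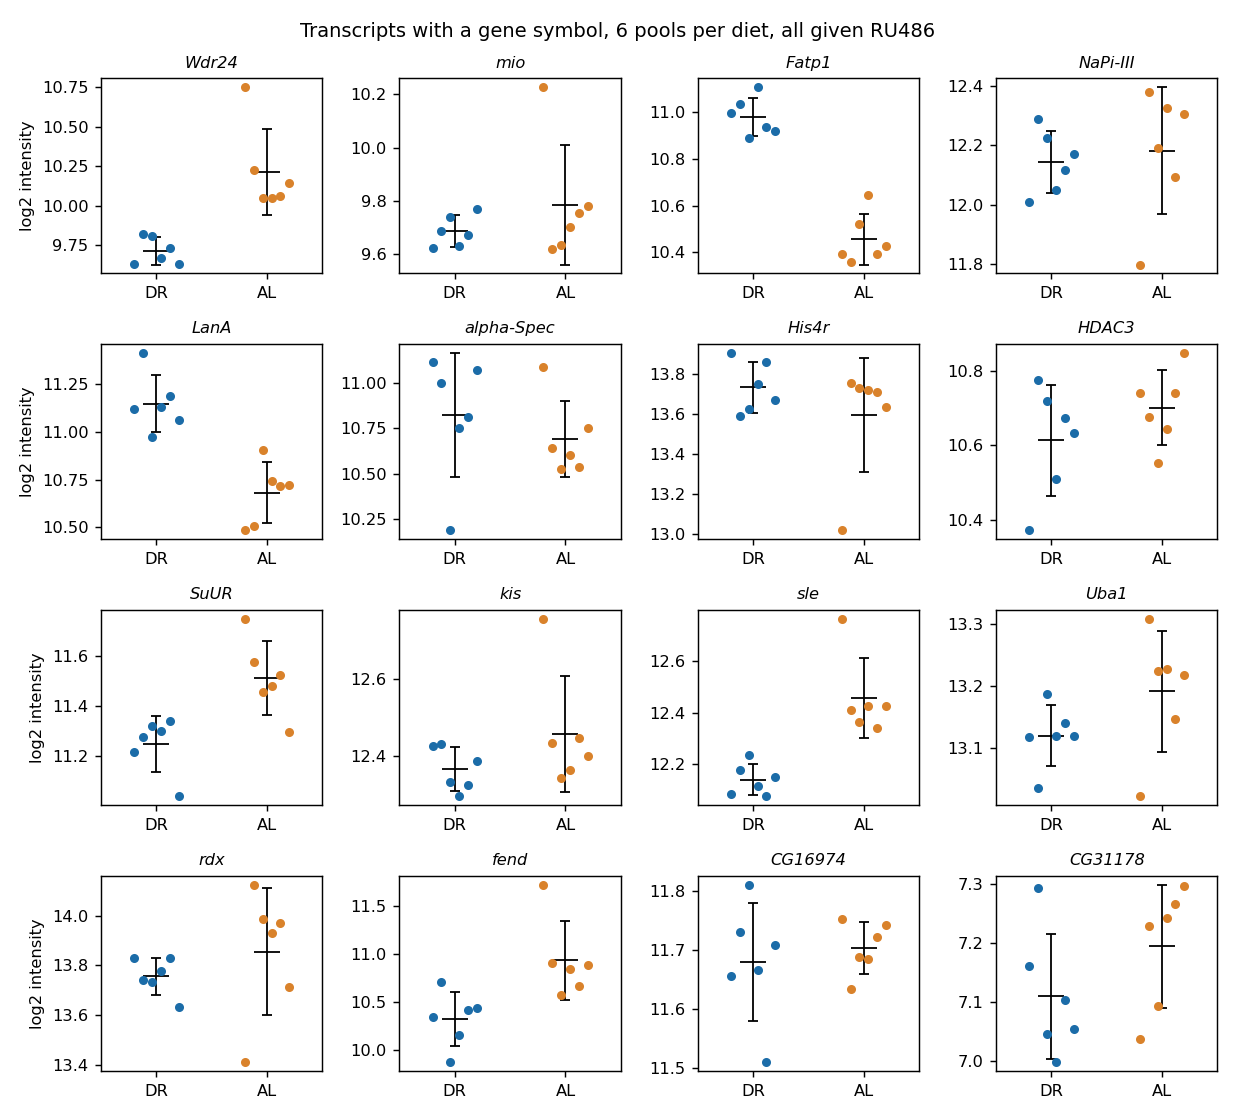
Log2 intensity of the 16 transcripts with a gene symbol in the 6 DR pools (blue) and the 6 AL pools (orange) given RU486, 1 point per pool in order of pool number, with mean and SD (black); axes differ between panels and do not start at 0. Fatp1 and LanA are higher in all DR pools and Wdr24 and sle are lower in all DR pools; the first AL point, pool 1, lies far from its group in His4r, Wdr24, fend, kis, mio and sle.

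**Figure D3:**
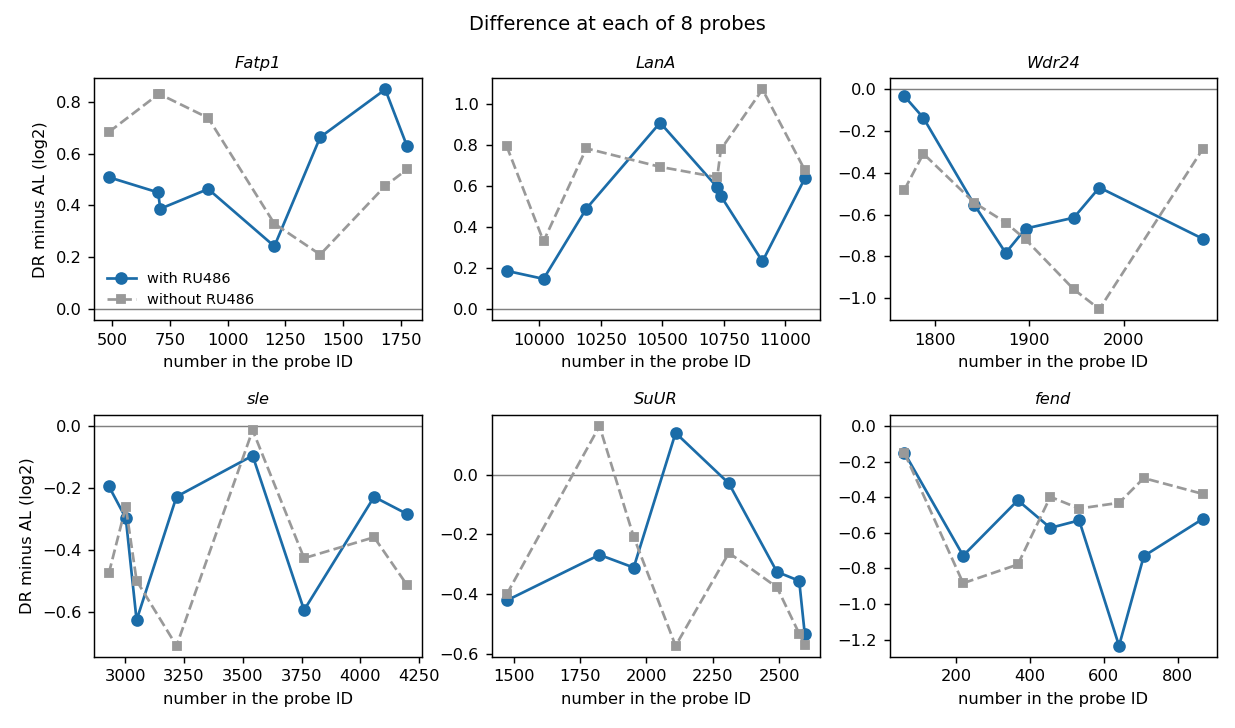
Difference of DR from AL (log2) at each of the 8 probes of the 6 transcripts with a symbol that passed the test, against the number in the probe ID, with RU486 (blue) and without it (grey). Every probe of Fatp1 and LanA lies above 0 and every probe of Wdr24, sle and fend below 0 with RU486; SuUR has 1 probe above 0, at 0.14 log2.

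The number in a probe ID may be its place along the transcript, which the sources used here do not state. The highest number was within the gene's length in the RefSeq table for 16 of the 16. The length was far above the number in some genes, at 64997 against 1117 in rdx, and closer in others, at 3336 against 2513 in mio. Such a check could hardly fail for the long genes, so it does not show what the number means.

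The 28 transcripts with several symbols are given in the table with 1 gene as an upstream and another as the main open reading frame, so that 1 RNA may serve more than 1 gene. They were taken as a group after the table was seen. All 28 were above background on all 12 arrays. On DR 4 rose, by at least 0.19 log2, and 13 fell, by at least 0.18 log2, against 26.6% and 29.2% of the 12400 transcripts above background on all 12 arrays. Their median difference was −0.16 log2, with a range from −0.54 to 0.75. Without DR pool 3 and AL pool 1, 4 rose and 11 fell. Among the transcripts with 1 symbol, the table also marks CG16974, CG31178, Fatp1, HDAC3, NaPi-III, SuUR, fend and rdx as a main open reading frame. Fatp1 is marked as an upstream one as well. Whether the RNA of these transcripts serves another gene was not tested.

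The transcripts that answer to diet without RU486 were followed through the pools given RU486. The mean differences with and without RU486 share no arrays, but both tests take a transcript's spread from all 24 arrays. A small spread favours passing in both, so the counts that passed are partly built in and are no separate check. Without RU486, 1047 transcripts were at least 2-fold higher on DR and 90 at least 2-fold lower. With RU486, 1030 of the 1047 passed as higher, against 24.5% of all transcripts, and 427 were again at least 2-fold higher, against 2.74%, while 0 passed as lower. Of the 90, 88 passed as lower, against 24.3% of all transcripts, 59 at 2-fold or more, against 0.469%, and 0 as higher. The median difference of the 1047 was 0.94 log2 with RU486 and 1.24 without, and that of the 90 was −1.18 with and −1.37 without. Both lists were chosen for a large difference without RU486, so a smaller median with RU486 is built in by the choice and is not read here as a smaller response.

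Pool by pool, each of the 12 arrays given RU486 was set against the mean of the AL pools given RU486, itself left out. The median over the 1047 transcripts was 0.71 to 1.12 log2 in DR pools and −0.07 to 0.05 in AL pools. The 5 DR pools other than pool 3 lay at 0.93 or above, and pool 3 at 0.71. The median over the 90 transcripts was −1.32 to −1.07 log2 in DR pools and −0.18 to 0.13 in AL pools. Here DR pool 3 lay at the far end, at −1.32, and DR pool 4 nearest to the AL pools. The median over all probes was lower on DR pool 3, at 9.26 log2, than on the other DR pools, at 9.43 to 9.47. The part of this in the place of DR pool 3 in both lists was not tested. DR and AL pools did not overlap in either list.

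**Figure D4:**
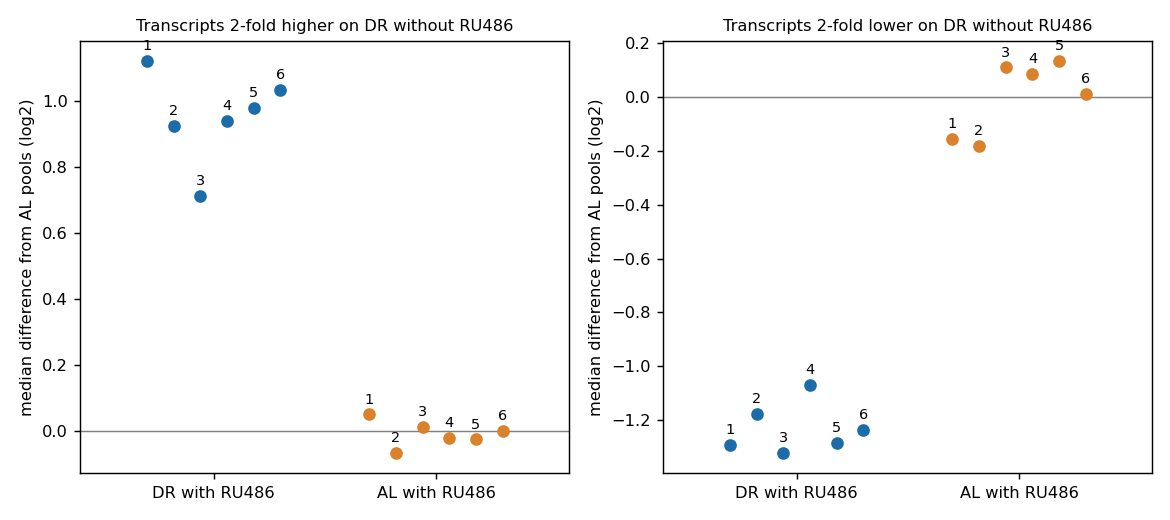
Median difference (log2) of each pool given RU486 from the other AL pools given RU486, over 1047 transcripts that were at least 2-fold higher on DR without RU486 (left) and 90 that were at least 2-fold lower (right); numbers are pool numbers. The DR pools (blue) lie at 0.71 to 1.12 on the left and at −1.32 to −1.07 on the right, apart from the AL pools (orange).

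The response with RU486 differed from that without it for 1084 transcripts (6.52%) by the interaction test in limma. When 1 array was left out the number ran from 771, without DR pool 2, to 1853, without AL pool 1, and was 1696 without DR pool 1. Of the 1084, 330 had risen with RU486, and for 304 of these the interaction was negative, a smaller rise than without RU486. Another 258 had fallen with RU486, of which 176 had a positive interaction, a smaller fall than without RU486. The remaining 496 did not pass for diet with RU486, and in 352 of these the interaction was positive. The interaction had the sign of the response with RU486 for 108 transcripts, 26 that rose and 82 that fell. In 27 the diets differed in opposite directions with and without RU486. Of the 1139 transcripts that passed for diet with RU486 and not without it, 53 passed the interaction. The interaction passed for 0 of the 16 in limma, with adjusted p from 0.0502 for HDAC3, at 0.32 log2, to 0.97 for kis, and 2 of the 28 with several symbols did.

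**Figure D5:**
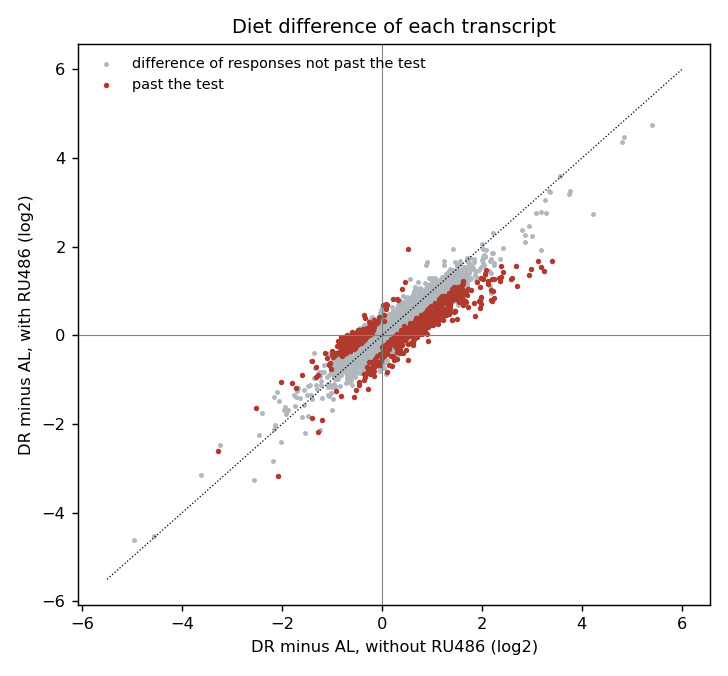
Difference of DR from AL (log2) of each of 16637 transcripts with RU486 (vertical) and without it (horizontal), which share no arrays; the dotted line marks equal differences. The 1084 transcripts past the test of the difference between both (red) lie on both sides of the line.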

How the data were processed

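RNA of 24 pools of flies was amplified, labelled with Cy3 and hybridised to 1-colour NimbleGen arrays, per the labels' protocols, with extraction, amplification and labelling randomized over groups. The authors deposited 1 log2 value per probe and array for 137090 probes. The values run between 6.09 and 16.51, from which the log base was inferred. The submitters' processing notes name limma without a version. The sources used here give neither background correction, normalization and genome build nor slides, and no batch was entered. The labels do not say whether pools came from separate cultures, so p-values measure the spread between pools. The number of arrays limits the precision.

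Random probes (4091) were left out, and the probes sharing the first 11 characters of their ID were averaged. A model of 4 group means over all 24 arrays (limma 3.58.1, R 4.3.3, lmFit and eBayes) was used, with Benjamini-Hochberg adjustment over 16637 transcripts and a threshold of 0.05. The code was run on simulated data with noise independent between transcripts and arrays. That run held no array-wide shifts, so it does not show how the test behaves with arrays that stand apart. Array measures were compared by exact permutation with SciPy 1.17.1, and figures drawn with matplotlib 3.10.9. Symbols came from RefSeq genes, Release 6. Named are all transcripts with 1 symbol and the 2 highest and 2 lowest differences above background on all 12 arrays. Members, lists and tests were chosen with earlier results of these data known. Of 21 gene lists, 7 held a transcript with a symbol. Same-numbered pools of the diets had correlations of deviations from −0.07 to 0.25, so numbers were not taken as pairs. Alternatives covered scaling, probe summary, filter, weights, block and left-out arrays.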

Additional observations from a re-analysis of the deposited data

Results flagged for a closer look

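AL pool 1 given RU486 lay far from the other 5 AL pools in 6 of the 16 transcripts with a symbol, by the gap to the nearest pool over the whole range of the group. It was at 13.02 log2 in His4r, below the next pool at 13.63. It was at 10.75 log2 in Wdr24 (next pool 10.23), 11.73 in fend (next 10.91), 12.76 in kis (next 12.45), 10.23 in mio (next 9.78) and 12.77 in sle (next 12.43). The same array had an SD of transcript deviations from the group mean of 0.365 log2, with the next AL pool at 0.140. Its highest-numbered probes were brighter than the lowest-numbered by 0.519 log2, with the next AL pool at 0.428. DR pool 3 given RU486 had the lowest array median of its group, 9.26 log2 (next pool 9.43), and an SD of deviations of 0.228 (next 0.159). In FBtr0085029, AL pool 6 was the brightest at 9.13 log2, with the next AL pool at 8.18. In all, 11 of 56 groups had such a pool, 8 of them by AL pool 1, and chance gives about 1 in 20 for a single group. The 56 groups are transcripts and array measures from the same 12 arrays, so 1 array can flag many of them. The count is therefore no test against chance.

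The diet response with RU486 differed from that without it for 1084 transcripts by the interaction test in limma, as described above.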

How the results depend on the processing

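The 20 named transcripts were refitted under each alternative. In 385 of 399 refits the direction and the side of the threshold stayed, in 9 a transcript newly passed, in 0 was a call lost, and in 5 the sign turned in transcripts that did not pass. With medians over probes these were CG16974 (0.027 log2), NaPi-III (0.015) and rdx (0.014). With 1 array left out, CG16974 ran from −0.050 to 0.011 log2, above 0 without DR pool 5, and NaPi-III from −0.114 to 0.0017, above 0 without AL pool 2. Those that newly passed are given in the text, apart from CG31178 after centring (adjusted p = 0.018), which lay above background on 0 arrays.

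The count of calls was 8116, with 7650 to 8828 when 1 array was left out (3872 to 4359 higher, 3720 to 4469 lower), and at 1.5-fold 1568 to 1837 higher and 266 to 367 lower. It was 6890 with only the 12 arrays given RU486. Centring gave 6749 lower, 569 at 1.5-fold. With single probes tested, 3506 transcripts had most of their probes called one way, 2447 higher and 1059 lower. The interaction count was 1084, with 771 to 1853 when 1 array was left out, 2281 with array weights and 1597 without DR pool 3 and AL pool 1. The difference in transcripts above background, 636.5, was 567.6 to 699.5 with 1 array left out, and that of the random probes, −0.107 log2, was −0.116 to −0.097. With 1 common background 49 transcripts were detected on DR only and 5 on AL only. Without overlap, 3747 were higher and 2985 lower when those 2 arrays were left out, an alternative chosen after seeing the data. Leaving out any array can only keep or raise these 2 counts. The cause of these changes was not tested.

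With pool number as a replicate block, 7920 transcripts passed for diet and 972 for the interaction, and no call of a named transcript changed. The labels do not say that equal numbers share a batch, and 2 of 6 DR pools correlated best with the AL pool of their own number. Dim transcripts limit these data, since 1716 lay above background on none of the 12 arrays, and the unknown background correction bears on them most.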
